A study of Mus musculus with 6 samples.

Results

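B cell and immunoglobulin genes were examined in brown adipose tissue (BAT) of mice on a high-fat or a low-fat diet. The set holds 9 genes, Cd79a, Cd79b, Ms4a1, Pax5, Ighm, Ighd, Igkc, Mzb1 and Ltb, which were found by symbol among the 47729 genes of the deposited tables. Each symbol matched 1 gene. The tissue came from wild type male C57BL/6J mice that started at 6 weeks of age and were fed for 4 weeks, until 10 weeks of age. The diet of 3 mice was labelled as a 45% high-fat diet (HFD), and that of the other 3 mice as standard rodent diet, called low-fat diet (LFD) in the study. The mice of each diet with the most, the middle and the least body fat had been taken for sequencing, so that the 3 mice of a diet were picked to span its range of fatness. Total RNA of the right interscapular depot was freed of ribosomal RNA and read from 1 end over 75 bases. Each mouse has 1 library, and the mice are numbered 1 to 3 within each diet.

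B cells recognise antigen with a membrane antibody made of heavy and light chains, and this antibody signals through a pair of partner proteins that carry tyrosine activation motifs. Resting B cells carry IgM and IgD, and plasma cells, the secreting form, drop much of the surface machinery and fill with antibody RNA. Adipose tissue holds B cells scattered among its other immune cells and in small lymphoid clusters, and interscapular BAT also lies close to muscle, vessels and lymphatics.

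Expression was given in expected counts, which are the reads that RSEM assigned to a gene, and in TPM, which divides the counts by gene length and scales each mouse to the same total. Diets were compared with the quasi-likelihood test of edgeR on rounded counts, with Benjamini-Hochberg adjustment over all 17668 genes that passed its filter on low counts. The call required an adjusted p under 0.01 together with a log2 fold change beyond 1.5 in either direction, and fold changes are HFD over LFD. Libraries held 17156991 to 21603487 counts, and 3.87% to 22.7% of them were on the mitochondrial genome. Adipoq, a gene of all adipocytes, was at 388.41 TPM or more in each mouse. The brown adipocyte genes were not high throughout. Ucp1 was at 2728, 4021 and 796 TPM in HFD 1 to 3 and at 443, 11.03 and 75.98 TPM in LFD 1 to 3. Every HFD mouse was thus above every LFD mouse for Ucp1 (log2 fold change 3.67, edgeR adjusted p 0.480). Cidea ranged from 18.85 TPM in LFD 2 to 734 TPM in HFD 2, and Elovl3 was at 0.71 TPM in LFD 2 and 1.59 TPM in LFD 3. Cidea and Elovl3 overlapped between diets. LFD 1 and LFD 2 stood apart from the others for several of the genes described here, and the values without them are given where they matter.

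Of the 9 genes, 8 passed the filter and none was called. That was also the share among all genes, of which 0% (0 of 17668) were called by edgeR. At an unadjusted p under 0.05 edgeR found 1851 genes, among them Ltb and Igkc, and DESeq2 with the same thresholds called 411 genes (2.03% of the 20275 with an adjusted p) and none of the 9. Lymphotoxin beta (Ltb) and the receptor subunit Cd79b lay higher in every HFD mouse than in every LFD mouse in log2 CPM, the logarithm of counts scaled to library size. The antibody chains Ighm and Igkc lay far higher in LFD 2 than in any other mouse. The remaining B cell genes overlapped between diets. Since whole tissue was sequenced, fewer B cells and less RNA per B cell cannot be told apart in any of these values.

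**Figure D1:**
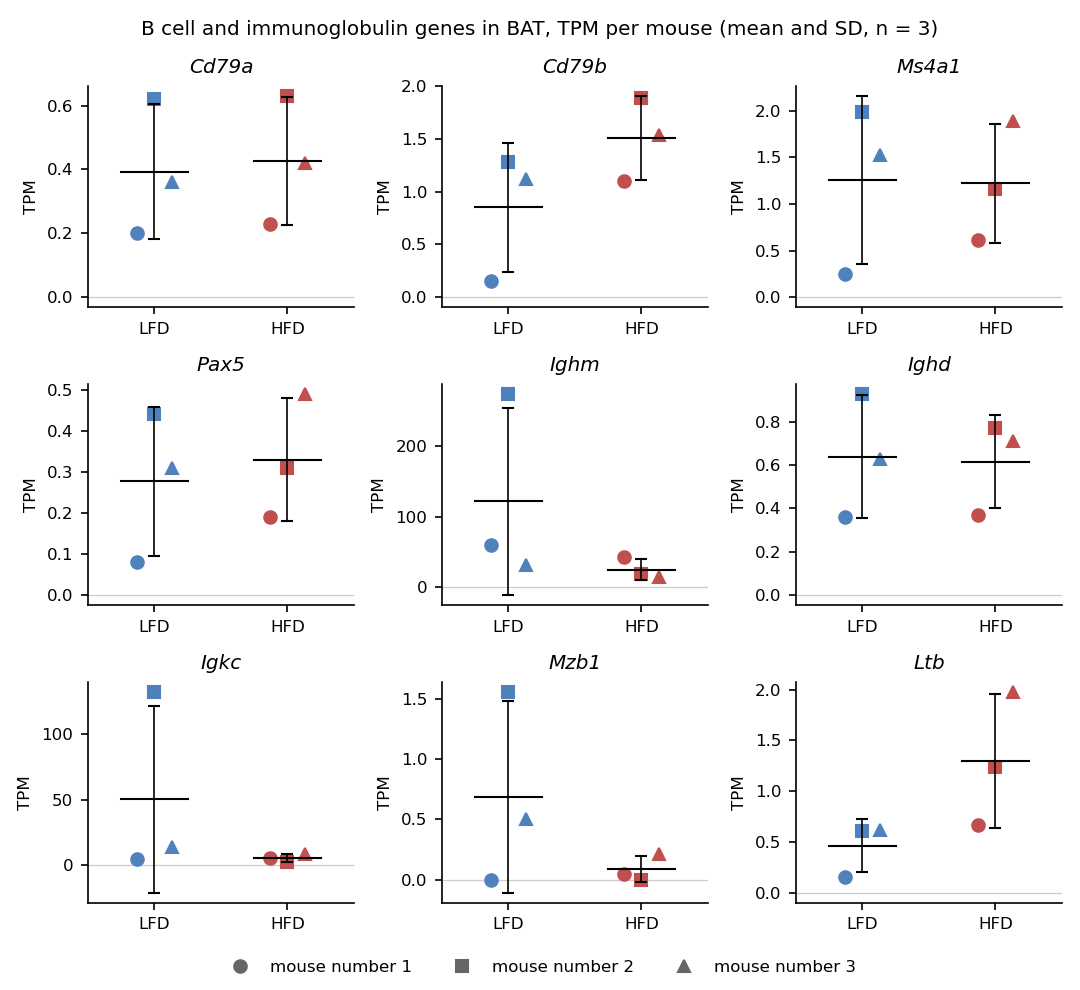
TPM (vertical axis, linear, a scale of its own for each gene) of the 9 genes in each LFD (blue) and HFD (red) mouse, with the mouse number given by the symbol and the mean and SD of 3 mice in black. The Ltb values of the HFD mice (0.67 to 1.98) lie above those of the LFD mice (0.16 to 0.62), and LFD 2 holds the highest value of Ighm, Igkc and Mzb1.

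The sequences just ahead of 2 of the genes are shown because Ltb was the gene with the clearest separation of the diets and Cd79a encodes a subunit of the B cell receptor itself. Promoter windows that span 250 bases before to 50 bases after the annotated start were matched by symbol in a RefSeq table of GRCm38.p6, and 3 of the 9 genes (Cd79a, Pax5 and Ltb) had one. The stretches printed end before the first annotated base of the gene in GENCODE M21. Both lie on the plus strand, at chr17:35194257-35194438 for Ltb and chr7:24897247-24897380 for Cd79a. Capitals mark a kappa B motif.
Ltb: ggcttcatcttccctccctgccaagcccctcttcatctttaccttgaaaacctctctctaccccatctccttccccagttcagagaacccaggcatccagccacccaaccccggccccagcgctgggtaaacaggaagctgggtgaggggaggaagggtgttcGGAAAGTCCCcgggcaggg
Cd79a: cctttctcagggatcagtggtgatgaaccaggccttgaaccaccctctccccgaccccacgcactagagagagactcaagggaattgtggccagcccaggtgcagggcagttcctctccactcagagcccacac

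The windows were searched on both strands for the octamer ATGCAAAT, which is bound by Oct factors and is typical of immunoglobulin promoters, and for the palindrome TCCCNNGGGA, a form of the site of the B cell factor Ebf1. Neither was found in the 3 windows. Only exact matches of these letters were searched, so a site that differs by 1 letter would be missed. Whether the windows hold other forms of these sites was not tested. Among all 32851 promoter windows of the same length, 1.74% held the octamer and 0.904% the palindrome. The kappa B motif GGGACTTTCC, the classical site of NF-kappa B, was added after the sequences had been read. Its letters were taken from the Ltb window, so the match there was fixed beforehand. Its reverse complement begins 87 bases before the RefSeq start of Ltb, and 0.155% of all windows held it on either strand. That share describes the windows and does not test Ltb. A match is a run of letters and not a measured binding site.

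Cd79a and Cd79b encode the signalling subunits of the B cell receptor, and both are used as markers of the lineage. Cd79a (GRCm38, chr7:24897381-24902197, plus strand) was at 0.23, 0.63 and 0.42 TPM in HFD 1 to 3 and at 0.20, 0.62 and 0.36 TPM in LFD 1 to 3. The diets overlapped almost wholly, with 7 to 14 counts in the HFD mice and 5 to 12 in the LFD mice. EdgeR gave a log2 fold change of 0.33 (SE 0.50) and an adjusted p of 0.902. At this depth, a mouse with 5 counts of Cd79a has a 95% Poisson interval of 1.62 to 11.7 counts, so small differences were not detectable.

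Cd79b (chr11:106311341-106314762, minus strand) was at 1.10, 1.89 and 1.54 TPM in the HFD mice and at 0.15, 1.28 and 1.12 TPM in the LFD mice. LFD 1 was the low mouse, with 3 counts against 15 and 20 in the other LFD mice and 27 to 34 in the HFD mice. On the log2 CPM scale every HFD mouse was above every LFD mouse, and in TPM the diets overlapped, because HFD 1 was below LFD 2 and LFD 3. In edgeR this was a log2 fold change of 1.21 (SE 0.57), with an unadjusted p of 0.0736 and an adjusted p of 0.530. Without LFD 1 it was 0.81, and with the mouse number as a block it was 1.33 (edgeR adjusted p 0.302). The ratio of Cd79b to Cd79a in TPM was 3.00 to 4.78 in the HFD mice and 0.75, 2.06 and 3.11 in LFD 1 to 3. The lowest ratio, in LFD 1, rests on 3 counts of Cd79b and 5 of Cd79a. Whether the ratios differ beyond counting error was not tested. Over the 6 mice the log2 CPM of the 2 subunits had a Pearson r of 0.607, given as a description only.

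Ms4a1 encodes CD20, a surface protein of B cells from the pre-B stage up to the plasma cell. Ms4a1 (chr19:11249675-11266241, minus strand) was at 0.61, 1.16 and 1.89 TPM in HFD 1 to 3 and at 0.25, 1.99 and 1.53 TPM in LFD 1 to 3. The diets overlapped and the lowest mouse was again LFD 1. Its log2 fold change was 0.30 (SE 0.59, edgeR adjusted p 0.929), and it was -0.11 without LFD 1.

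Pax5 is the transcription factor that commits cells to the B lineage and keeps them there. Pax5 (chr4:44524757-44710487, minus strand) was at 0.19, 0.31 and 0.49 TPM in HFD 1 to 3 and at 0.08, 0.44 and 0.31 TPM in LFD 1 to 3. The HFD mice had 8, 13 and 19 counts and the LFD mice 1, 17 and 19, so that the single low value, LFD 1, rests on 1 read (95% Poisson interval 0.025 to 5.57). The log2 fold change was 0.05 (SE 0.78, edgeR adjusted p 0.991), and without LFD 1 it was -0.46. Pax5 and Ms4a1 each overlap an antisense gene in the annotation, and it is not given in the sources used here whether strand was used in counting.

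In TPM, LFD 1 held the lowest value of Cd79a, Cd79b, Ms4a1, Pax5 and Ltb among the 6 mice. It was also the lowest for the summed TPM of the 8 macrophage markers, at 538 against 1786 to 4148 in the other 5 mice, and for the 6 NK cell markers, at 0.56 against 3.56 to 39.5. It was not low for antibody heavy chain RNA. The T cell receptor constant gene Trac was at 20.84 TPM in LFD 1 and at 0.68 to 4.27 TPM elsewhere, while the gene of the other receptor chain, Trbc2, was lowest in LFD 1, at 0.09 TPM.

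Of the antibody chain genes, Ighm and Igkc were the most abundant of the set and Ighd was among the middle ones. Ighm encodes the constant region of the mu heavy chain, the chain of IgM. Ighm (chr12:113418558-113422730, minus strand) was at 41.93, 18.21 and 13.70 TPM in HFD 1 to 3 and at 58.96, 274.5 and 31.46 TPM in LFD 1 to 3. LFD 2 was the highest mouse by a wide margin, and the lowest LFD mouse was below the highest HFD mouse, so the diets overlapped. The log2 fold change was -1.77 (SE 0.93, edgeR unadjusted p 0.101, adjusted p 0.581). Without LFD 2 it was -0.72, with an adjusted p of 0.881. Between mice of the same number, HFD minus LFD was -0.34, -3.63 and -0.80 in log2 CPM. The deposited tables do not show where in the locus the reads lie, so whether every Ighm count stands for a complete IgM heavy chain message was not tested.

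Ighd, the constant region of the IgD heavy chain, is made from the same primary transcript as Ighm in naive B cells, by alternative splicing. Ighd (chr12:113406604-113416324, minus strand) was at 0.37, 0.77 and 0.71 TPM in HFD 1 to 3 and at 0.36, 0.93 and 0.63 TPM in LFD 1 to 3. The spread between mice was small, with 11 to 20 counts in all 6, and the log2 fold change was -0.19 (SE 0.40, edgeR adjusted p 0.937). Ighm and Ighd were thus far apart in how much they varied. Their log2 CPM nevertheless rose and fell together over the 6 mice, with a Pearson r of 0.944, given as a description only. The ratio of Ighm to Ighd in TPM was 113, 23.6 and 19.3 in HFD 1 to 3 and 164, 295 and 49.9 in LFD 1 to 3.

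Igkc encodes the constant region of the kappa light chain, the main light chain of mice. Igkc (chr6:70726435-70726966, plus strand) was at 4.98, 2.18 and 8.05 TPM in HFD 1 to 3 and at 4.42, 132.61 and 13.51 TPM in LFD 1 to 3. LFD 2 held 846 counts and the other 5 mice 16 to 74, and outside LFD 2 the diets overlapped. The log2 fold change was -2.86 (SE 1.18), with an unadjusted p of 0.0471 and an adjusted p of 0.472 in edgeR. It was -0.49 without LFD 2 and -1.57 with the mouse number as a block, with adjusted p of 0.895 and 0.618, and DESeq2 gave no p for this gene.

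Mzb1 encodes a chaperone of the endoplasmic reticulum that is known from marginal zone B cells, B-1 cells and plasma cells and helps IgM to assemble. Mzb1, on chromosome 18, was at 0.05, 0 and 0.21 TPM in HFD 1 to 3 and at 0, 1.56 and 0.50 TPM in LFD 1 to 3. In counts these were 1, 0 and 3 in the HFD mice and 0, 18 and 5 in the LFD mice, and the gene was below the filter and was not tested. A count of 0 allows up to 3 counts (one-sided 95% limit, unlike the two-sided intervals above), which is 0.151 CPM in HFD 2 and 0.143 CPM in LFD 1. As for Ighm and Igkc, the highest value was in LFD 2.

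Ltb encodes lymphotoxin beta, the membrane anchor of the lymphotoxin heterotrimer, which drives the organisation of lymph nodes and is made by B cells, T cells, NK cells and innate lymphoid cells. Ltb (chr17:35194439-35196320, plus strand) was at 0.67, 1.24 and 1.98 TPM in HFD 1 to 3 and at 0.16, 0.61 and 0.62 TPM in LFD 1 to 3. Every HFD mouse was above every LFD mouse in TPM and in log2 CPM, although the gap between HFD 1 and LFD 3 was narrow in TPM. The counts were 16, 22 and 39 against 3, 11 and 8. The log2 fold change was 1.68 (SE 0.52), and edgeR gave an unadjusted p of 0.0148 and an adjusted p of 0.333. With the mouse number as a block the log2 fold change was 1.71, with an edgeR adjusted p of 0.159. Between mice of the same number, HFD minus LFD was 1.79, 0.88 and 1.85 in log2 CPM. Leaving out 1 mouse at a time gave log2 fold changes from 1.38 to 2.01.

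Markers of other cells that make Ltb were read in the same mice. All 6 NK cell markers were above in every HFD mouse, where 6.72% of all tested genes were. Their summed level was 10.2 to 39.5 TPM in HFD mice and 0.56 to 6.10 TPM in LFD mice. None of them was at 0 in any mouse. The summed 10 T cell markers were at 12.9 to 24.4 TPM in HFD mice and at 11.2 to 22.5 TPM in LFD mice, and 5 of the 9 tested ones, among them Lck and Cd3g, were above in every HFD mouse. Without Trac the T cell sum was 11.01 to 22.57 TPM in HFD mice and 1.69, 13.41 and 10.5 TPM in LFD 1 to 3. By edgeR no NK or T cell marker was called. At an unadjusted edgeR p under 0.05, 6 NK cell and 4 T cell markers were higher, beside 3.86% of all genes. DESeq2 called 5 NK cell and 2 T cell markers as higher in HFD, among 106 such genes of all. The part of these cells in the Ltb and Cd79b values was not tested.

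Counted together, 2 of the 8 tested genes (Cd79b and Ltb) were above in all HFD mice, where 6.72% of all tested genes were, and 0 were below in all HFD mice, where 9.23% of all genes were. At an unadjusted p under 0.05, 1 gene was higher (Ltb; 3.86% of all genes) and 1 was lower (Igkc; 6.62% of all genes). The median log2 fold change of the 8 genes was 0.18, beside -0.05 over all tested genes. With so few genes the shares are coarse, and 1 gene moves them by more than the background.

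**Figure D2:**
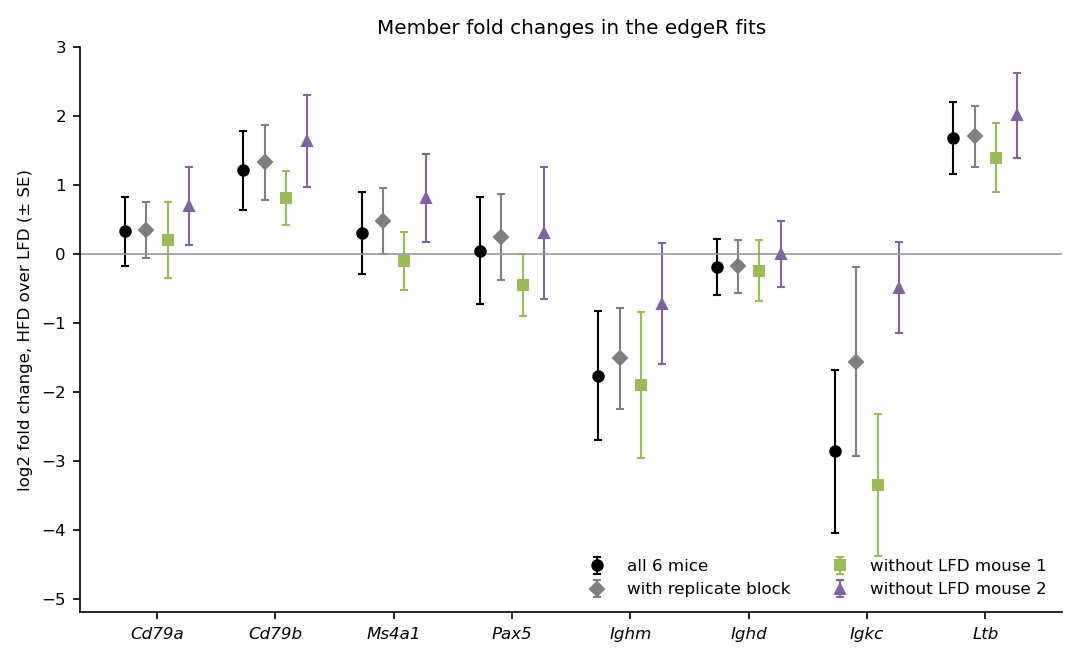
Log2 fold change, HFD over LFD, with its SE from edgeR (vertical axis) for the 8 tested genes in the fit of all 6 mice, with the mouse number as a block, without LFD 1 and without LFD 2. Ltb stays between 1.40 and 2.01 in the 4 fits shown, whereas Igkc goes from -2.86 to -0.49 and Ighm from -1.77 to -0.72 when LFD 2 is left out.

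From high to low, the mean TPM (± SD of 3 mice) in HFD mice had the order Ighm (24.6 ± 15.2), Igkc (5.07 ± 2.94), Cd79b (1.51 ± 0.40), Ltb (1.297 ± 0.66), Ms4a1 (1.22 ± 0.64), Ighd (0.62 ± 0.22), Cd79a (0.43 ± 0.20), Pax5 (0.33 ± 0.15) and Mzb1 (0.087 ± 0.11). The ranges of Ighm and Igkc, and of Igkc and Cd79b, did not overlap, and all later neighbours in the order overlapped. In LFD mice Ighm (122 ± 133) and Igkc (50.2 ± 71.5) again led, now with overlapping ranges. Ms4a1 followed without reaching Igkc, and Cd79b, Mzb1, Ighd, Ltb, Cd79a and Pax5 came next, each overlapping its neighbour. Ltb was the fourth gene in HFD mice and the seventh in LFD mice, and Mzb1 was the last in HFD mice and the fifth in LFD mice, where LFD 2 gave most of its level.

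The high level of antibody RNA in LFD 2 was seen in every class of antibody segment. Summed over 8 heavy chain constant genes, the counts were 1397, 481 and 475 in HFD 1 to 3 and 1557, 5706 and 611 in LFD 1 to 3. The lambda light chain constants Iglc1 to Iglc3 summed to 23, 12 and 16 counts in the HFD mice and to 2, 731 and 14 in the LFD mice. The 348 variable segments, which give each antibody its binding site, summed to 51, 31 and 93 counts in the HFD mice and to 36, 1744 and 79 in the LFD mice. Outside LFD 2 none of these classes separated the diets.

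**Figure D3:**
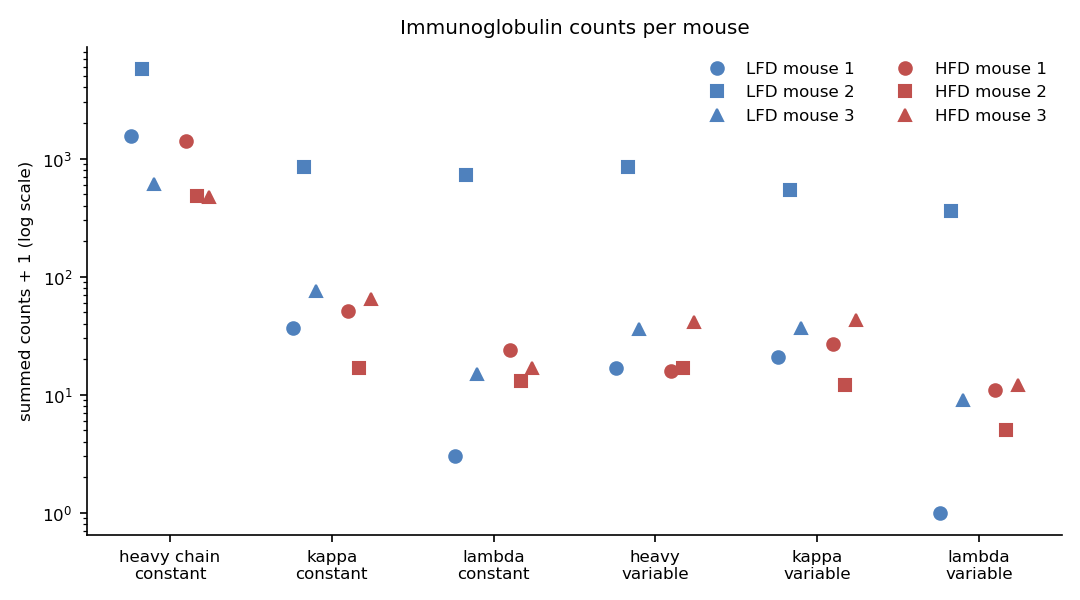
Summed counts plus 1 (vertical axis, log scale) of the antibody constant and variable genes in each LFD (blue) and HFD (red) mouse, with the mouse number given by the symbol. LFD 2 is the highest mouse in all 6 classes, with 848 heavy chain variable counts where the other mice have 15 to 40, and the remaining mice of both diets overlap.

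All 360 antibody genes together gave a mean log2 CPM of 5.31 ± 0.98 (SD) in HFD mice and 6.90 ± 1.76 in LFD mice. The difference was -1.59 (exact two-sided permutation test, n = 3 per diet, p = 0.2, adjusted p = 0.4 over 4 sums). With 3 mice per diet this test cannot give a p below 0.1. Between mice of the same number the total was lower on HFD in each of the 3 pairs, with HFD minus LFD at -0.27, -4.06 and -0.45 in log2 CPM, and an exact permutation of the signs gave p = 0.25, the smallest it can give. The differences were -1.48 for the heavy chain constants, -1.79 for the light chain constants and -1.81 for the variable segments, with exact permutation p of 0.2, 0.4 and 0.5 and adjusted p of 0.4, 0.5 and 0.5. Without LFD 2 the difference of the total was -0.67 (exact permutation p = 0.5). The total in TPM was 59.04, 31.32 and 49.76 in HFD 1 to 3 and 71.33, 961.13 and 76.47 in LFD 1 to 3. In TPM the diets thus did not overlap, whereas in log2 CPM HFD 1 lay above LFD 3. As log2(TPM + 1) the difference was -1.92 (exact permutation p = 0.1, the smallest possible).

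Antibody RNA in LFD 2 came from many segments and a few large ones. Of the variable segments, 98 had at least 1 count in LFD 2, and 13 to 40 did in the other mice. The heavy chain segment with the highest mean TPM, Ighv7-3, held 266 of the 848 heavy chain variable counts of LFD 2 (31.4%, exact binomial 95% interval 28.3% to 34.6%). It held 9 counts in LFD 3 and 0 in the other 4 mice. For the kappa chain Igkv10-96 led, with 77 counts in LFD 2, 8 in HFD 3, 3 in LFD 3 and 0 in the rest. For the lambda chain Iglv2 led, with 273 of 357 lambda variable counts in LFD 2 (76.5%, 71.7% to 80.8%) and 0 in the other 5 mice. None of the 348 segments passed the filter on low counts. Variable segments and the lambda constants have near-identical copies among which RSEM divides reads, so values of single segments are uncertain.

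The class of the antibody also differed between mice. Ighm made up 97.6%, 92.1% and 75.8% of heavy chain constant counts in HFD 1 to 3 and 98.8%, 96.7% and 90.2% in LFD 1 to 3. The constant gene of IgG3, Ighg3, had 160 counts in LFD 2, 2.80% of its heavy chain constant counts (2.39% to 3.27%), and 0 in the other 5 mice, where a count of 0 allows up to 3 counts by the one-sided limit. The constant gene of IgA, Igha, had 0, 23 and 95 counts in HFD 1 to 3 and 7, 8 and 44 in LFD 1 to 3, and its share of the heavy chain constants was highest in HFD 3, at 20% (16.5% to 23.9%). Of the other IgG genes, Ighg2b had 19, 2 and 4 counts in HFD 1 to 3 and 0, 0 and 3 in LFD 1 to 3. Ighg2c had 2 counts in HFD 3 and 0 elsewhere. Ighg1 and Ighe had 0 counts in all 6 mice. Lambda chains made up 46.4% of light chain constant counts in LFD 2 (43.9% to 48.9%) and 5.26% to 42.9% in the other mice, where 28 to 88 counts stood behind each share. These intervals cover counting error only.

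Ighm was not matched by light chain RNA to the same degree in all mice. The ratio of Ighm to all light chain constants in TPM was 5.42, 4.45 and 1.32 in HFD 1 to 3 and 12.6, 1.11 and 1.90 in LFD 1 to 3. Against the summed heavy chain variable segments, Ighm was at 16.3, 5.16 and 1.59 in the HFD mice and at 19.5, 1.32 and 3.01 in the LFD mice. In both diets mouse 1 had the most Ighm per light chain and per variable segment, and LFD 2, with the most antibody RNA, had the lowest ratio of all. Ighm in HFD 1 and LFD 1 (41.93 and 58.96 TPM) was accompanied by 2.58 and 3.03 TPM of heavy chain variable segments, and what their Ighm level and class shares stand for was not tested.

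LFD 2 also stood out in the genes around it. Jchain, which joins IgM and IgA into polymers in antibody secreting cells, had 13, 7 and 36 counts in HFD 1 to 3 and 8, 477 and 28 in LFD 1 to 3, and its log2 fold change of -3.22 (edgeR adjusted p 0.499) was -0.12 without LFD 2. The summed skeletal muscle markers were at 11660 TPM in LFD 2, at 1710 and 4851 TPM in the other LFD mice and at 11.4 to 317 TPM in the HFD mice. Of these 10 genes 9 were below in every HFD mouse, where 9.23% of all tested genes were. The summed lymph node stroma list was at 94.8 TPM in LFD 2 and at 2.23 to 41.6 TPM in the other mice, of which Cxcl13 alone gave 75.92 TPM in LFD 2 and 39.62 TPM in LFD 1. Without Cxcl13 the sum was 18.84 TPM in LFD 2 and 28.56 TPM in HFD 2, the highest mouse. The vessel genes Glycam1 and Madcam1 of the list were at 0.30 TPM or less in all 6 mice, were below the filter and were not tested. The part of muscle or lymphoid tissue in the antibody values was not tested.

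Other genes of the B cell pathway were then taken from 9 lists, without the 9 genes described above. Of their 81 rows 59 were tested and none was called by edgeR, with 10 higher and 4 lower at an unadjusted p under 0.05 (3.86% and 6.62% of all genes), and DESeq2 called 2 of them, Cd72 as higher and Cxcl13 as lower in HFD. In 18 of the 59 every HFD mouse was above every LFD mouse in log2 CPM, the scale of all such counts here, and in 4 every HFD mouse was below, beside 6.72% and 9.23% of all genes. The median log2 fold change was 0.60, beside -0.05 for all genes. It was 0.36 without LFD 1, 0.38 without HFD 3 and 0.94 without LFD 3, and the genes above were 30 without LFD 3 and those below 9 without LFD 1. Many of these genes are shared with myeloid or other lymphoid cells, and the macrophage, NK and T cell markers are given in the same terms for that reason.

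Coreceptors and surface proteins were measured by 10 rows, of which 8 were tested and 2 were above in every HFD mouse, beside 6.72% of all genes. Cd72, an inhibitory coreceptor that is also found on some myeloid and NK cells, was at 15.17, 33.37 and 32.00 TPM in HFD 1 to 3 and at 4.33, 9.05 and 10.11 TPM in LFD 1 to 3. Its log2 fold change was 1.55 (SE 0.22), and no gene of the 17668 had a lower edgeR adjusted p than its 0.170. Cd22, an inhibitory receptor, was the other one. Cd81, a tetraspanin of many cell types, had the highest mean TPM (222) and Fcgr2b, the inhibitory Fc receptor of B and myeloid cells, the lowest log2 fold change (-0.28). Cd37 had 2 gene rows of the same symbol, both of which overlapped between diets.

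The kinases and adaptors downstream of the B cell receptor had 11 positive and 1 negative log2 fold changes among 12 tested genes, with a median of 1.16 and 6 genes above in every HFD mouse, beside 6.72% of all genes. Without LFD 1 there were 10 positive and 2 negative values with a median of 0.76, without HFD 3 the median was 0.72, and without LFD 3 10 genes were above. Lyn, a Src family kinase, had the highest mean TPM (37.3) and a log2 fold change of 1.13. Bank1, a B cell scaffold, had the lowest log2 fold change, at -0.06. Blk, the most B cell restricted kinase of the list, was at 0.07 to 0.22 TPM and was not tested.

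Of 9 tested B cell transcription factors 4 were above in every HFD mouse, beside 6.72% of all genes, and the median log2 fold change was 0.94. The median was 0.59 without LFD 1 and 0.60 without HFD 3, and 6 genes were above without LFD 2 or without HFD 2. Spib, an Ets family factor of B cells and plasmacytoid dendritic cells, had the highest, 1.54 (SE 0.58, edgeR adjusted p 0.424). Irf4, a factor of plasma cells that brown adipocytes also use, had the lowest, -1.23 (SE 0.44, adjusted p 0.409), and it was at 1.63, 4.77 and 2.52 TPM in the HFD mice and at 6.76, 10.67 and 5.11 TPM in the LFD mice, apart in TPM and overlapping in log2 CPM. Ebf1, which is needed for B cells and is also made by adipocytes, had the highest mean TPM (61.4).

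Among plasma cell genes, 2 of 7 tested were above and 1 was below in every HFD mouse, beside 6.72% and 9.23% of all genes. Prdm1, the master regulator of plasma cells, had the highest log2 fold change, at 1.11, and Jchain the lowest. Xbp1, a factor of secretory cells in general, was both the most abundant and the gene below in every HFD mouse, at 55.47, 85.57 and 126.34 TPM in HFD 1 to 3 and at 120.37, 210.15 and 173.42 TPM in LFD 1 to 3. In TPM alone HFD 3 was above LFD 1. Its log2 fold change was -0.74 (SE 0.27, edgeR adjusted p 0.414).

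Of the 9 other antibody constant genes only Igha and Iglc1 passed the filter, with log2 fold changes of 0.80 and -2.79 and overlapping diets, and Iglc1 had 109 counts in LFD 2 and 1 to 11 elsewhere. All 7 genes of B cell progenitors, such as Rag1 and Vpreb1, were below the filter, and 3 of them had no count in any mouse. Among B-1 cell genes, Spn, the sialoglycoprotein CD43 of B-1 and T cells, was above in every HFD mouse with a log2 fold change of 1.59 (edgeR adjusted p 0.372). Bhlhe41, a factor of B-1 cells that is also a clock gene, was below in every HFD mouse with -1.03 (adjusted p 0.394).

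The list of survival and homing genes held 10 tested rows, 2 above and 2 below in every HFD mouse, beside 6.72% and 9.23% of all genes. Cxcl13, the chemokine that draws B cells into follicles, was at 1.48, 3.60 and 0.43 TPM in HFD 1 to 3 and at 39.62, 75.92 and 5.37 TPM in LFD 1 to 3. All HFD mice were below all LFD mice. The log2 fold change was -4.32 (SE 1.17), with an edgeR adjusted p of 0.270, or 0.0207 with the mouse number as a block, and leaving out 1 mouse at a time gave -4.93 to -3.82. Its receptor on B cells, Cxcr5, was at 0.11 to 0.54 TPM in the 6 mice, with overlapping diets. Tnfsf13b, the survival factor BAFF, was the other gene that was below in every HFD mouse, with a log2 fold change of -1.26 (edgeR adjusted p 0.490) that was -0.64 without LFD 2. The highest log2 fold change in the list was 2.00, in 1 of the 2 rows of Ccl21a, with overlapping diets, and the most abundant gene was Cxcl12, with a mean TPM of 52.0 and a log2 fold change of 0.56.

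The partners of Ltb in the lymphotoxin pathway were tested in 8 of 9 cases. Lta, the chain that completes the heterotrimer, was at 0 to 0.06 TPM and was not tested. The receptor Ltbr, which stromal and myeloid cells carry, was at 25.80, 34.88 and 50.71 TPM in HFD 1 to 3 and at 49.26, 42.04 and 69.53 TPM in LFD 1 to 3, and its log2 fold change of -0.34 (edgeR adjusted p 0.706) was the lowest of the list. The kinase Map3k14 and the factors Nfkb2 and Relb, which act below the receptor, overlapped between diets, with log2 fold changes of -0.08, 0.55 and 0.36. Tnf, a cytokine gene next to Ltb in the genome, was the 1 gene of the list above in every HFD mouse, at 1.69, 3.30 and 9.73 TPM against 0.04, 1.17 and 1.22 TPM, with a log2 fold change of 2.95 (SE 0.91, adjusted p 0.337). The most abundant member was the receptor Tnfrsf1a, with a mean TPM of 107 and a log2 fold change of -0.03.

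**Figure D4:**
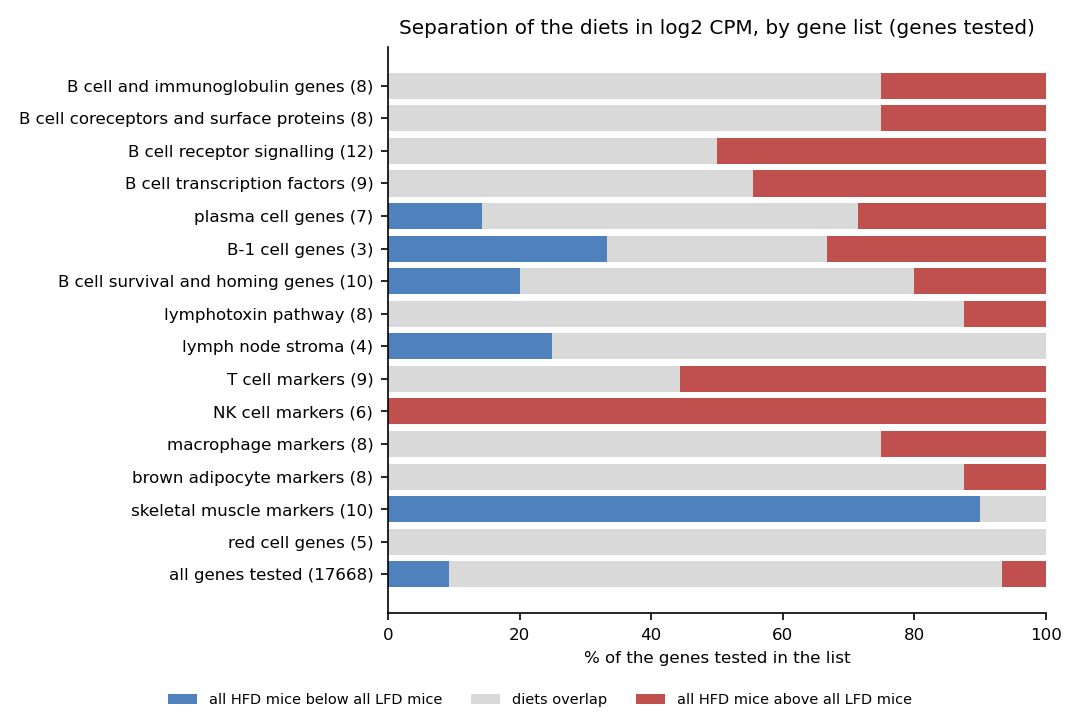
Share of the tested genes of each list (horizontal axis, %, number of tested genes in brackets) whose log2 CPM was above in every HFD mouse (red), below in every HFD mouse (blue) or overlapping (grey), with all 17668 tested genes as the last bar. In the receptor signalling list 6 of 12 genes are above, and all 6 NK cell markers are, beside 6.72% of all genes.

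In the same count, 2 of 8 macrophage markers were above in every HFD mouse, beside 6.72% of all genes. Their median was 0.23 (-0.07 without LFD 1, 0.43 without LFD 3) and their summed level was 1786 to 3592 TPM in HFD mice and 538 to 4148 TPM in LFD mice. The median was 0.96 for 9 tested T cell markers (1.58 without LFD 2) and 3.10 for 6 NK cell markers. For the 5 red cell genes it was 1.31, with overlapping diets throughout, and it was 0.80 without HFD 1 and 1.99 without LFD 2, when all 5 were above. Whether the receptor signalling genes were read from B cells or from these other cells was not tested.

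Finally, the genes with log2 CPM most like that of Cd79a and of Ighm over the 6 mice were listed. For Cd79a they were Gm43999, 5730408A14Rik, Gm15878, Gm37745 and 4633401B06Rik, with Pearson r of 0.975 to 0.989. These are genes without an established name, at mean levels of 0.58 to 4.01 TPM, and like Cd79a all of them had their highest TPM within each diet in mouse 2. For Ighm they were Sp9, Synpo2, Cnbd2, Mup2 and Gm527, with r of 0.976 to 0.985. Synpo2, which encodes an actin-binding protein of muscle, was at 27.33 TPM in LFD 2 and at 4.01 to 12.19 TPM elsewhere, and Mup2, a major urinary protein of the liver, at 38.66 TPM in LFD 2 and at 0.12 to 2.89 TPM elsewhere. No other B cell gene was among the 10. The points of such a correlation are 6 libraries that share their depth and make-up across genes, and the genes were picked as the highest of 17668, so r is given as a description only.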

How the data were processed

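Total RNA of BAT from 3 HFD and 3 LFD mice was analysed, 1 library per mouse, with groups and mouse numbers taken from the labels. The authors trimmed reads with Trimmomatic 0.36, quantified them with RSEM 1.3.0 on GRCm38.p4 with Ensembl annotation, and deposited an expected count, which is not normalized, for each gene and mouse. The deposited TPM values are scaled by RSEM to gene length and library.

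Expected counts were rounded and tested in R 4.3.3 with edgeR 4.0.16 (TMM, filterByExpr, quasi-likelihood, diet only), and log2 CPM used a prior count of 2. Libraries held 17156991 to 21603487 counts. No library was a repeat of another of its diet (chi-square per degree of freedom 71.7 to 558). Genes with few counts carry counting error on top of the spread between mice. Summed antibody counts were compared by exact permutation over the 20 splits of the mice. Mouse numbers paired the samples by a check of deviations from diet means across genes: r was 0.498, 0.229 and 0.522 in same-numbered pairs and -0.528 to 0.0532 in the others.

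The members and lists were chosen with earlier results of these data known. Besides the members, each list names its most abundant tested gene and those with the highest and lowest log2 fold change, and for each chain the most abundant variable segment. Cd22, Blk, Cxcr5, Lta, Map3k14, Nfkb2, Relb, Ighg2b, Ighg2c, Ighg3, Trac, Trbc2, Lck, Cd3g and the genes below in every HFD mouse were also named, after their values were seen. Positions are from GENCODE M21 (GRCm38). Alternatives were DESeq2 1.42.0, RLE size factors, other filters, limma 3.58.1 on log2(TPM + 1), a replicate block, a looser threshold (adjusted p under 0.05, any fold), a prior count of 0.5, leaving out mitochondrial and ribosomal RNA genes or antibody segments, and leaving out each mouse. Values of 2 list genes are not reported here. The scripts were tested on simulated data.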

Additional observations from a re-analysis of the deposited data

How the results depend on the processing

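No member was called in any of the 15 alternatives, and the summed antibody counts were lower in HFD mice in all 13 that gave them. The difference was -2.42 to -0.67 when 1 mouse was left out. It barely moved (-1.61 to -1.58) with RLE size factors, the other filters, or mitochondrial and ribosomal RNA genes left out. As log2(TPM + 1) it was -1.92, with an exact permutation p of 0.1, the smallest this test can give. The paired alternative keeps the main mean difference by construction. Over all genes 0 were called, but 411 with DESeq2 (106 higher, 305 lower) and 1, Rnu3a, which was named after its value was seen, with limma on log2(TPM + 1), where the median of all genes was -0.18 instead of -0.05. The number of members above or below in every HFD mouse was 2, but 1 on log2(TPM + 1) and 0 with at least 10 counts in every sample, a filter that left 4 members. It was 2 to 4 when 1 mouse was left out, with 4 without HFD 1. The median member log2 fold change of 0.18 was -0.98 under that filter and -0.17 to 0.50 when 1 mouse was left out. Ms4a1 reversed to -0.11 without LFD 1 (range 0.0037 to 0.81 otherwise), Pax5 to -0.17 without HFD 3 and -0.46 without LFD 1 (up to 0.48), and Ighd to 0.0018 without LFD 2 (down to -0.32). With the replicate block, which pairs mice of the same number, 0 genes were called, the median member log2 fold change was 0.30, and no call changed. The summed antibody counts differed by a mean of -1.59 within pairs, an alternative added after seeing the data, as were the list medians without each mouse. The block and DESeq2 gave no value for the separation of the diets. In fits with 2 mice in a diet the spread is pooled over both diets. Depth limits Cd79a, Cd79b, Pax5, Ighd, Mzb1 and Ltb most, with at most 39 counts in a mouse.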
